A study of Sus scrofa with 28 samples.

Results

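Solute carriers (SLC genes) are the membrane proteins that move amino acids, sugars, metals, ions, vitamins and metabolites across the plasma membrane and across the membranes of organelles. The 120 genes described here are those for which at least 1 probe set of the porcine array carried exactly 1 gene symbol, and that symbol began with SLC and a digit. They make up 120 of the 6765 genes with a single symbol on the array, and 176 of its 23999 tested probe sets. A further 5 probe sets carried several symbols that included an SLC symbol and were not used. Each gene was represented by its brightest probe set over all arrays, and no measured difference entered this choice of probe set. The SLC genes themselves were chosen with earlier results of these data known. Of the 120 genes, 39 had more than 1 probe set. Values of further probe sets are given below only for SLC45A3, SLC25A37 and SLC26A11. No further probe set of an SLC gene was called in an exposure or lobe contrast.

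Carriers of the SLC type work as uniporters, as symporters that use the sodium, proton or chloride gradient, or as exchangers that swap one solute for another. In the lung they supply epithelium, endothelium and resident immune cells with amino acids and glucose, recycle phosphate in alveolar type 2 cells, and take part in ion and fluid balance across the alveolar surface. Members of the SLC25 family sit mostly in the inner mitochondrial membrane, where they exchange nucleotides, phosphate, metals and metabolites with the cytosol.

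Female swine were anesthetized, intubated and laid supine, and breathed either air or the vapor of sulfur mustard (HD), an alkylating blister agent, for 10 min. The dose was 60 ug/kg in the low group and 100 ug/kg in the medium group, and all groups, air included, shared the anesthesia and the lung sampling at 12 h. Total RNA of 3 left-lung lobes (apical, median and caudal) was hybridized to the Affymetrix porcine array, 28 arrays in all. The 10 animals were 3 air controls (28, 29 and 44), 3 of the low dose (31, 32 and 33) and 4 of the medium dose (34, 39, 41 and 42). The caudal lobe of animal 39 and the apical lobe of animal 41, both medium dose, were not analysed here, so the values of these animals rest on 2 lobes. The age of the animals was not given in the labels.

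The arrays resembled each other closely, with a median deposited signal of 55.4 to 64.2 and a mean correlation with the other arrays of 0.968 to 0.982. Markers of lung epithelium gave signal in every animal: 4 of 7 listed markers of alveolar type 2 cells were measured, with sums per animal of 5146 to 6841, and 4 of 4 of type 1 cells, with sums of 6467 to 7747. Medium animal 39 stood apart in RNA quality. Its index, the log2 ratio between 3' and 5' control probe sets averaged over actin and GAPDH, was 2.22, against 0.62 to 1.35 in the other 9 animals.

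The genes were sorted by family, and gene by gene in families of mixed cargo. By this sorting 19 carry amino acids or peptides, 15 carry glucose and other sugars, 21 belong to the SLC25 family, 13 carry metals and 13 carry inorganic ions. The remaining 39 carry nucleotide sugars, nucleosides, vitamins, organic ions, lipids, monocarboxylates or neurotransmitters, and include SLC9A3R1, SLC9A3R2 and SLC2A4RG, which bear an SLC symbol without being carriers. Dim probe sets were common: 51 of the 120 genes had a mean signal under that of the median probe set (61.5), among them 11 of the 19 amino acid genes and 9 of the 13 ion genes, but 5 of the 21 mitochondrial genes. Of 6765 genes in all, 1726 were that dim. These counts describe the brightness of probe sets on the array, since signals of different probe sets do not compare RNA levels.

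After the medium dose no SLC gene rose or fell past the threshold. The 6 smallest p values belonged to the cationic amino acid carrier SLC7A1, whose signal was higher than in air, and to the sulfate carrier SLC26A11, the folate-family carrier SLC46A2, the zinc importers SLC39A1 and SLC39A2 and the Golgi carrier SLC35B2, whose signals were lower. With limma and Benjamini-Hochberg adjustment over 23999 probe sets, 0 of 120 SLC genes had an adjusted p under 0.05, where 31 probe sets (0.129%) did over the whole array. At an unadjusted p under 0.05 there were 21 SLC genes, 7 higher and 14 lower (17.5%), against 19.2% of all 6765 genes, 8.75% higher and 10.5% lower. The share of SLC genes was thus near the background. A fit that kept every array and treated the animal as a random effect called 6 SLC genes (SLC7A1, SLC12A4, SLC26A11, SLC30A3, SLC45A3 and SLC46A2) among 4.32% of all probe sets. That fit assumes 1 correlation between lobes for all probe sets. It counts 28 arrays toward its precision although exposure was replicated over 10 animals, so its p-values can be too small. Without medium animal 34 there were 2 SLC calls (SLC1A5 and SLC46A2) where 1% of probe sets were called, and without medium animal 39 also 2 (SLC7A1 and SLC26A11) where 1.6% were. The median SLC difference was -0.036 on the log2 scale, with 50 genes above 0 and 70 below, where the median of all genes was -0.017.

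Every animal of the medium group lay above every air animal for 4 SLC genes, where 7.49% of all genes did so, and below every air animal for 11, where 8.26% did. The 4 were SLC7A1, SLC12A4, SLC25A17 and SLC23A1, and the 11 included SLC26A11, SLC46A2, SLC39A1, SLC39A2, SLC30A3, SLC35B2 and SLC44A4. In whole lung tissue, fewer cells of a type and less RNA per cell cannot be told apart. Summed T and NK cell markers (5 of 6 measured) were 624 to 1190 in the medium animals and 1407 to 1463 in the air animals, and summed smooth muscle markers (5 of 6) were 7240 to 8544 and 5916 to 7174. Summed B and plasma cell markers (2 of 5) were 1423 to 1647 and 1764 to 1888, and those of striated and heart muscle (5 of 6) 82.3 to 118 and 119 to 140. The striated and heart muscle markers gave little signal, the lowest being TNNT2 at a mean of 0.99, and were mixed, 2 above and 3 below air. None of the markers of these cell types was called. The part of these cell populations in the SLC differences was not tested.

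**Figure D1:**
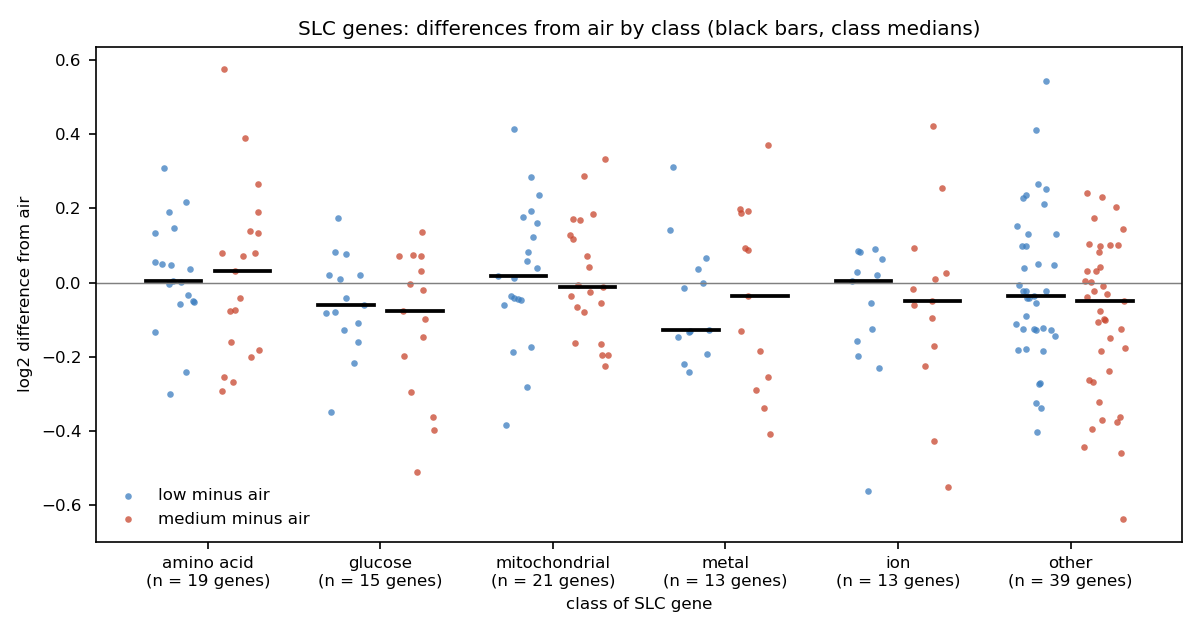
Log2 difference from air for each of the 120 SLC genes (points), by class, after the low dose (blue) and after the medium dose (red), with class medians as black bars. All class medians lie between -0.13 and 0.032, while single genes range from -0.64 to 0.57 after the medium dose.

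Among amino acid carriers, 2 genes had a higher and 1 a lower signal after the medium dose at an unadjusted p under 0.05, of 19, and the class median difference was 0.032 (log2). It turned to -0.047 without medium animal 34, to -0.028 without air animal 28 and to -0.012 in the 8 animals with all 3 lobes. SLC7A1 brings arginine, lysine and ornithine into the cell. Its normalized signal per animal was 189, 180 and 171 in the air animals, 189, 238 and 175 in the low-dose animals and 257, 249.6, 296 and 304 in the medium-dose animals. All 4 medium animals lay above all 6 others. The means were 179.9 ± 8.92 (SD, n = 3), 201 ± 33.2 (SD, n = 3) and 276 ± 27.3 (SD, n = 4), and the medium animals were 0.57 ± 0.11 (SE) higher than air on the log2 scale (limma, adjusted p = 0.076). Without animal 39, the one with the high RNA index, the difference was 0.62 ± 0.11 (limma, adjusted p = 0.0443). The random-effect fit, with its limit stated above, gave an adjusted p of 0.00748. The adjusted p ranged from 0.00748 to 0.297 over all alternatives.

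SLC1A5, the main glutamine importer of many dividing cells, gave per animal a signal of 501, 437 and 467 in the air animals, 490.2, 520.1 and 447 in the low-dose animals and 492, 668, 639.6 and 691 in the medium-dose animals. Animals 39, 41 and 42 lay above every air and low animal, and medium animal 34 lay within their range. The difference from air was 0.39 ± 0.12 on the log2 scale (limma, adjusted p = 0.152), and without animal 34 it was 0.49 ± 0.081 (limma, adjusted p = 0.0377; 0.0377 to 0.436 over all alternatives). SLC3A2, the heavy chain that brings several amino acid exchangers to the cell surface, overlapped between groups, at 108, 128 and 85.2 in the air animals, 114, 135 and 121 in the low-dose animals and 147, 95.5, 130.3 and 156 in the medium-dose animals. SLC6A14, a broad importer of neutral and cationic amino acids, was dim, at 17.1, 24.9 and 18.6 in air and 16.2, 10.3, 15.02 and 14.5 after the medium dose, and differed by -0.27 ± 0.10 (limma, adjusted p = 0.224). SLC38A10, a glutamine carrier family member, differed by 0.079 ± 0.11, with 0.0076 to 0.14 when 1 animal was left out, lowest without animal 41.

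Regulators of amino acid supply were read from a list of 31 partners and regulators of carriers, of which 22 were measured. In medium against air, 0 of the 22 passed the adjusted threshold, 1 was higher and 2 were lower at an unadjusted p under 0.05 (against 8.75% and 10.5% of all genes), and the list's median difference was 0.030. The 1 higher gene was ASNS, asparagine synthetase, a target of the amino acid response together with many amino acid carriers. Its signal was 149, 158 and 164 in the air animals, 221, 229 and 192 in the low-dose animals and 212, 292, 183 and 239 in the medium-dose animals. All 7 exposed animals lay above the 3 air animals, with differences of 0.50 ± 0.13 after the medium dose (limma, adjusted p = 0.129) and 0.41 ± 0.14 after the low dose. The share of all genes with such a separation at both doses is not given here. ATF4, the transcription factor of that response, differed by 0.20 ± 0.10 in medium against air. The 2 lower genes were the glycerol and water channel AQP3, at -0.33 ± 0.11, and OXSR1, a kinase of cation-chloride cotransporters, at -0.23 ± 0.078.

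**Figure D2:**
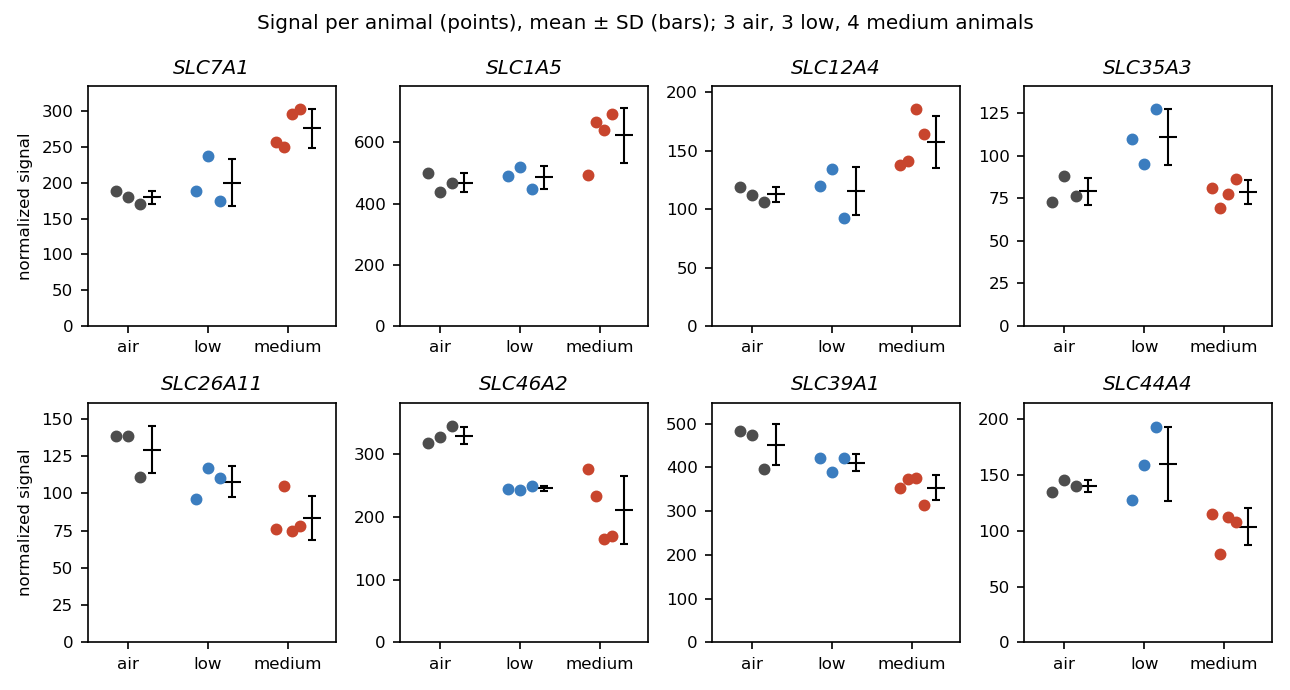
Normalized signal per animal (points; 3 air, 3 low, 4 medium animals) with mean ± SD (bars) for 8 SLC genes. All 4 medium animals lie above all air animals for SLC7A1 and SLC12A4 and below them for SLC26A11, SLC46A2, SLC39A1 and SLC44A4, whereas SLC35A3 is higher in the 3 low animals than in every air and medium animal.

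Glucose and sugar carriers had a median difference of -0.076 after the medium dose, with 5 genes above 0 and 10 below, and 0 higher and 2 lower of 15 at an unadjusted p under 0.05. The median ranged from -0.12 without animal 39 to -0.026 without animal 41. Among brighter probe sets it was -0.0023, over fewer genes, since 8 of the 15 were dim. The class median of each animal, taken over its genes relative to the mean of the air animals, was -0.040, 0.027 and -0.0067 in air and -0.18, -0.051, -0.16 and -0.12 in medium animals 34, 39, 41 and 42. All 4 medium animals lay below the 3 air animals in this summary, as they did in the class of other SLC genes (-0.11 to -0.038 against -0.030 to 0.027) and over all SLC genes. Centring each gene on the mean of the air animals keeps the air values near 0, which makes such a separation easier. The separation is thus a description only and no test. The widely expressed glucose importers overlapped between groups: SLC2A1 gave 86.6, 75.8 and 84.3 in the air animals, 89.5, 88.7 and 107 in the low-dose animals and 75.97, 75.1, 97.5 and 126 in the medium-dose animals, and SLC2A3, a high-affinity importer, differed by 0.072 ± 0.15 from air, with medium animals at 316, 334, 438 and 502. Animals 41 and 42 were the higher of the 4 for both genes. In animal 42 the apical array stood apart, at 313 for SLC2A1, against 67.7 and 88.3 in its median and caudal lobes, and at 895 for SLC2A3, against 329.5 and 426. This array was the highest of all 28 for 8 SLC genes (6.67%), against 4.26% of all 6765 genes. The other arrays were the highest for 0 to 10 SLC genes each. Without the apical array of animal 42, an alternative chosen after seeing the data, the differences from air turned to -0.023 for SLC2A1 and -0.025 for SLC2A3. Without animal 42 they turned to -0.012 and -0.054.

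The 2 lower sugar carriers were SLC2A2 and SLC45A3. SLC2A2, the glucose carrier of liver and pancreatic islets, was near the bottom of the scale, at 12.6, 10.5 and 11.7 in air and 8.41, 3.82, 8.61 and 5.47 after the medium dose. SLC45A3, a proposed sugar carrier first known from prostate, gave 109.8, 167 and 114 in the air animals, 111, 102 and 127 in the low-dose animals and 93.5, 84.1, 95.4 and 101 in the medium-dose animals, and every medium animal lay below every other animal. Its difference from air was -0.40 ± 0.13 (limma, adjusted p = 0.189), and its other 2 probe sets differed by -0.50 ± 0.088 and -0.35 ± 0.13 in the same direction. SLC50A1, a sugar efflux carrier, differed by -0.076 ± 0.12.

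The median of the 21 mitochondrial carriers was -0.012 after the medium dose and 0.017 after the low dose. Neither sign was stable: the medium value turned to 0.0072 without air animal 44 and 0.034 in the 8 animals with all 3 lobes, and the low value to -0.0028 with median-centred arrays. Of the 21, 2 were higher and 0 lower after the medium dose at an unadjusted p under 0.05. The ADP/ATP carriers, which export the ATP made by oxidative phosphorylation, overlapped between groups. SLC25A6 was 2137, 2044 and 2150 in the air animals, 2008, 2085 and 1980 in the low-dose animals and 2040, 2089, 1961 and 2040 in the medium-dose animals. SLC25A4 and SLC25A5 differed from air by -0.16 ± 0.13 and -0.067 ± 0.11, and the phosphate carrier SLC25A3 by -0.080 ± 0.070. Without animal 39, SLC25A4 differed by -0.043 and SLC25A5 by -0.010. For SLC25A4 medium animal 39 was lowest of all animals, at 204, and animal 42 highest, at 329.

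The 2 higher genes of the SLC25 family were SLC25A37, the mitochondrial iron importer of heme-forming cells, and SLC25A17, a carrier of the family that resides in peroxisomes. SLC25A37 was 153, 148 and 182 in the air animals, 154, 164 and 147 in the low-dose animals and 175, 227, 212 and 188 in the medium-dose animals, a difference of 0.29 ± 0.10 in medium against air (limma, adjusted p = 0.209). Its second probe set differed by -0.027 ± 0.11, so that the probe sets of this gene disagreed. Summed erythroid markers (4 of 6 measured) were 718 to 1022 in air and 904 to 1234 after the medium dose, and their part in this difference was not tested. SLC25A17 was 433, 447 and 448 in air and 499, 479, 538 and 509 after the medium dose, a difference of 0.19 ± 0.067.

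Of the 13 metal carriers, 0 were higher and 4 lower after the medium dose at an unadjusted p under 0.05 (30.8% of the class, against 10.5% of all genes lower), and the class median was -0.035. This share is a description, and the class median turned to 0.062 without animal 39 and was -0.14 without animal 34. SLC39A1, which imports zinc across the plasma membrane, was 483, 474 and 398 in the air animals, 422, 388 and 421 in the low-dose animals and 352, 374, 376 and 313 in the medium-dose animals. Every medium animal lay below every air and low animal. The difference from air was -0.34 ± 0.091 (limma, adjusted p = 0.131), and that of the low dose was -0.13 ± 0.10. SLC39A2, another zinc importer of the plasma membrane, was dim, at 29.9, 36.4 and 27.4 in the air animals, 23.2, 24.3 and 23.98 in the low-dose animals and 23.5, 22.2, 21.01 and 23.4 in the medium-dose animals, and both doses lay below air without overlap, with differences of -0.24 ± 0.078 and -0.29 ± 0.073. SLC30A3, a zinc loader of vesicles, was 344, 356 and 319 in air and 239, 318, 237 and 223 after the medium dose, where animal 39 came close to the lowest air animal, and differed by -0.41 ± 0.14 (limma, adjusted p = 0.193).

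Other metal carriers overlapped between medium and air. SLC11A1, the divalent metal carrier of phagosomes in macrophages and neutrophils, differed by 0.19 ± 0.13, and SLC39A7, which releases zinc from the endoplasmic reticulum and Golgi, by 0.095 ± 0.060. The copper importer SLC31A1 was 235, 236 and 236 in the air animals, 301, 262 and 329 in the low-dose animals and 289.5, 184, 227 and 228 in the medium-dose animals. All 3 low animals lay above the air animals, by 0.31 ± 0.14 (limma, unadjusted p = 0.0495, adjusted p = 0.673), while the medium animals spanned the air value, with animal 34 high and animal 39 low.

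Ion carriers had a median difference of -0.050 after the medium dose, with 2 higher and 1 lower of 13 at an unadjusted p under 0.05. This median turned to 0.010 without air animal 44 and 0.0045 with median-centred arrays. Among brighter probe sets it was -0.16, over fewer genes, since 9 of the 13 were dim. SLC26A11, a sulfate carrier of the lysosome and plasma membrane, was 138, 138 and 111 in the air animals, 96.2, 117 and 109.9 in the low-dose animals and 75.9, 105, 74.7 and 77.7 in the medium-dose animals. Every medium animal lay below every air animal, and animal 39 stood above the other 3 medium animals. The difference from air was -0.55 ± 0.12 (limma, adjusted p = 0.0914), and adjusted p was 0.0322 without animal 39 and 0.0485 with the RNA index as a covariate, with a range of 0.0231 to 0.321 over all alternatives. A second, dimmer probe set of SLC26A11 differed by -0.22 ± 0.10. SLC12A4, the potassium-chloride cotransporter that lets swollen cells lose volume, was 119, 112 and 106 in the air animals, 119.9, 134 and 92.8 in the low-dose animals and 137, 141, 186 and 164 in the medium-dose animals. All medium animals lay above all others, by 0.42 ± 0.13 against air (limma, adjusted p = 0.155).

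SLC8A1, the sodium-calcium exchanger of muscle cells, was dim and higher by 0.25 ± 0.094 after the medium dose, with all 4 medium animals between 22.3 and 23.4 and air animals at 13.4, 14.1 and 22.6, so that air animal 44 lay within the medium range. The part of the smooth muscle cells, whose summed markers are given above, was not tested. SLC34A2, the phosphate importer of alveolar type 2 cells, was 1684, 2218 and 1606 in the air animals, 1830, 1961 and 2018 in the low-dose animals and 1806, 1758, 1283 and 1432 in the medium-dose animals. Medium animals 41 and 42 were the lowest of all 10, and the group difference of -0.22 ± 0.14 had an adjusted p of 0.471 (limma). It was -0.081 without air animal 29 and -0.14 without medium animal 41. The bicarbonate cotransporter SLC4A4 differed by -0.17 ± 0.25, with air animal 44 at 99.7 against 48.4 and 35.5 in the other air animals, and without animal 44 the difference turned to 0.17.

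Among the 39 other SLC genes, 1 was higher and 6 were lower after the medium dose at an unadjusted p under 0.05, and the class median was -0.050. SLC46A2, a relative of the folate carrier known from thymic stroma, was 318, 327 and 345 in the air animals, 245, 242 and 249.6 in the low-dose animals and 277, 233, 165 and 169 in the medium-dose animals. The 7 exposed animals all lay below the 3 air animals, and medium animals 41 and 42 were lowest. How many of all genes were lower in this way at both doses is not given here. The differences from air were -0.40 ± 0.16 after the low dose (limma, adjusted p = 0.666) and -0.64 ± 0.15 after the medium dose (limma, adjusted p = 0.109), and the latter was -0.77 ± 0.12 without animal 34 (limma, adjusted p = 0.0325; 0.0325 to 0.321 over all alternatives). SLC35B2, which carries the sulfate donor PAPS into the Golgi, was 234, 234 and 199 in the air animals, 197, 205 and 246 in the low-dose animals and 181, 179.6, 174 and 162 in the medium-dose animals. All medium animals lay below all others, with a difference of -0.32 ± 0.091 from air (limma, adjusted p = 0.137). SLC16A3, a lactate exporter of glycolytic cells, spread widely after the medium dose, at 22.9, 42.5, 65.2 and 66.4, and differed by 0.20 ± 0.23. The apical array of animal 42 was again the highest of all, at 189.5 against 34.4 and 37.98 in the other lobes of that animal. The SLC16A3 difference was 0.034 ± 0.20 without this array, 0.059 without animal 42, 0.43 without animal 34 and 0.071 without animal 41.

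After the low dose no SLC gene rose or fell past the threshold. With limma, 0 of 120 passed the adjusted threshold, where 0% of all probe sets did, and the random-effect fit also called 0 of 120. At an unadjusted p under 0.05 there were 11 SLC genes, 5 higher and 6 lower (9.17%), against 6.84% of all genes, 3.49% higher and 3.36% lower. The median SLC difference was -0.023, beside -0.0001 over all genes. Every low animal lay above every air animal for 7 SLC genes and below for 8. Over all genes, 8.93% lay above in this way and 8.32% below. Some summed cell markers did not overlap between low and air either: B and plasma cell markers were 1483 to 1602 in the low animals (2 of 2 lower at an unadjusted p under 0.05), ciliated cell markers 631 to 854 against 506 to 596, and smooth muscle markers 7263 to 7888. None was called, and their part in the SLC values was not tested.

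The smallest p after the low dose belonged to SLC35A3, which brings UDP-N-acetylglucosamine into the Golgi for glycan synthesis. Its signal was 73.02, 87.9 and 76.5 in the air animals, 110.2, 95.1 and 128 in the low-dose animals and 80.99, 69.2, 77.8 and 86.2 in the medium-dose animals, so that the low animals lay above all others. They were 0.41 ± 0.11 higher than air (limma, adjusted p = 0.655). The calcium-regulated mitochondrial carrier of ATP-magnesium and phosphate, SLC25A24, was 494, 481 and 524 in air and 548, 565 and 610.2 after the low dose, a difference of 0.19 ± 0.070. The monocarboxylate-family member SLC16A13 differed by -0.27 ± 0.088, with low animals between 83.2 and 85.9 and air animals at 94.5, 102 and 123. The sodium-proton exchanger SLC9A5 differed by -0.56 ± 0.21 and SLC25A48 by -0.38 ± 0.15. Both were dim, and SLC9A5 overlapped between low and air. The SLC9A5 difference ranged from -1.03 to -0.40 over all alternatives.

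In medium against low dose, 0 of 120 SLC genes passed the adjusted threshold with limma, where 1 probe set (0.00417%) did over the whole array. The random-effect fit, with its limit stated above, called 6 (SLC7A1, SLC12A4, SLC25A11, SLC35A3, SLC38A1 and SLC44A4) where 5.8% of probe sets were called. Without medium animal 34 there were 3 calls (SLC1A5, SLC31A1 and SLC39A14) where 5.72% were. The unadjusted count was 19, 10 higher and 9 lower (15.8%), against 19.2% of all genes, 8.85% higher and 10.4% lower. Every medium animal lay above every low animal for 8 SLC genes and below for 9. Over all genes, 7.02% lay above in this way and 8.32% below. This comparison shares its medium animals with the comparison to air, so its values are given side by side and not as separate support. SLC35A3 differed by -0.42 ± 0.10 between medium and low dose (limma, adjusted p = 0.123; 0.0194 with a random animal effect), and close to air in the medium animals. SLC7A1 was 0.44 ± 0.11 higher (limma, adjusted p = 0.128; 0.0241 with a random animal effect).

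SLC44A4, a choline-family carrier of epithelia, was 135, 146 and 139.9 in the air animals, 128, 159 and 193 in the low-dose animals and 115, 79.4, 112 and 108 in the medium-dose animals. All medium animals lay below all air and low animals, with differences of -0.55 ± 0.14 against low (limma, adjusted p = 0.132; 0.0173 with a random animal effect) and -0.39 ± 0.14 against air. Summed markers of ciliated cells (4 of 7 measured) were 506 to 596 in air, 631 to 854 after the low dose and 452 to 557 after the medium dose, and their part in the SLC44A4 difference was not tested. The oxoglutarate carrier SLC25A11 of the malate-aspartate shuttle was 64.1, 72.5 and 68.1 after the low dose and 86.7, 113, 92.9 and 77.8 after the medium dose, a difference of 0.36 ± 0.11, and SLC25A37 differed by 0.33 ± 0.10. SLC5A6, the importer of biotin and pantothenate, differed by 0.42 ± 0.17, and by -0.34 ± 0.18 between low dose and air.

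**Figure D3:**
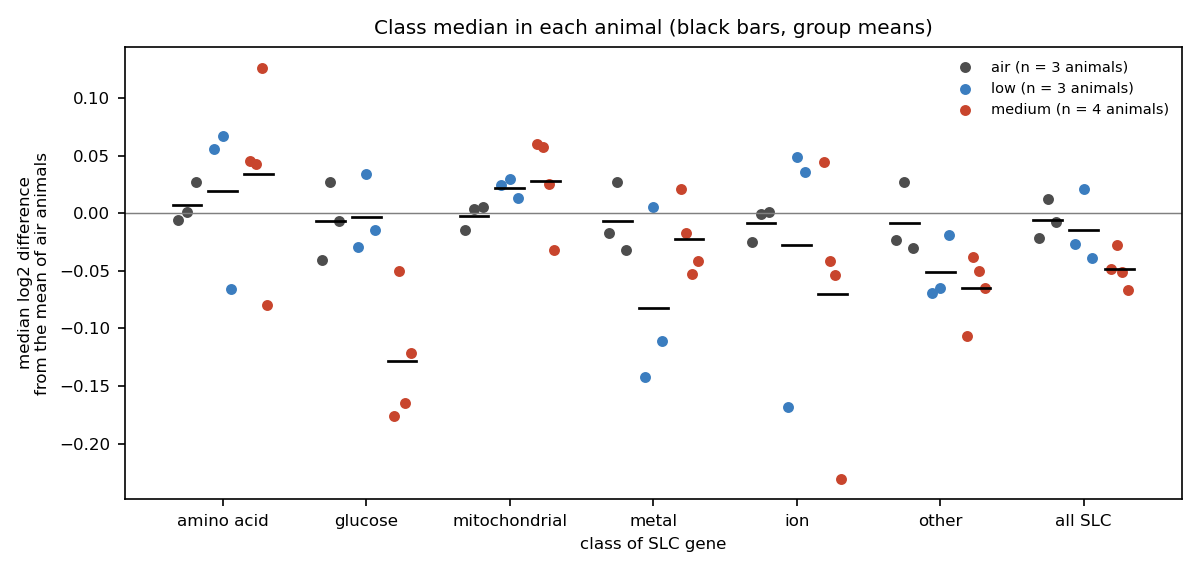
Median log2 difference from the mean of the air animals over the genes of each class, 1 point per animal (3 air, 3 low, 4 medium), with group means as black bars. The 4 medium animals lie between -0.18 and -0.051 for the glucose class, and between -0.11 and -0.038 for the class of other genes, in both cases below all air animals, while the remaining 4 classes overlap. The air animals are centred on their own mean gene by gene, which keeps their values near 0 and makes such a separation easier.

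The lobes of the same animal differed in 9 SLC genes, and all 9 were lower in the apical than in the median lobe. They were the amino acid carriers SLC7A1, SLC1A5 and SLC1A3, the sodium-glucose cotransporter SLC5A1, the vitamin importer SLC5A6, SLC35B1, which brings ATP into the endoplasmic reticulum, SLC35C1, which brings GDP-fucose into the Golgi, the mitochondrial glutathione importer SLC25A39 and the zinc carrier SLC39A7. In a model with the animal as a block, 9 of 120 SLC genes (7.5%) had an adjusted p under 0.05 (limma), where 2.41% of all probe sets and 3.95% of the 6765 genes did. None of the 120 was higher in the apical lobe, while 1.88% of all genes were higher and 2.07% lower. At an unadjusted p under 0.05 the SLC counts were 7 higher and 17 lower (20%), against 10.5% and 11.8% of all genes (22.3% in all), and the SLC median was -0.0082 beside -0.0030 over all genes.

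SLC7A1 ranged over the 9 apical arrays from 135 to 246 with a median of 188, and over the 10 median arrays from 176 to 383 with a median of 225. Within animals the difference ran from -0.62 to 0.041 with a median of -0.32 (log2), was below 0 in 8 of 9 animals, and was fitted as -0.34 ± 0.074 (limma, adjusted p = 0.027). SLC1A5 ranged from 373 to 531 with a median of 449.7 in the apical lobe and from 431 to 860.5 with a median of 529 in the median lobe. It was lower in the apical lobe in 8 of 9 animals, and fell by 0.34 ± 0.078 (limma, adjusted p = 0.032). Air animal 29 was the exception for both genes.

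SLC5A1, which imports glucose with sodium at the apical face of epithelia, was dim, ranging from 17.5 to 42.9 with a median of 32.2 in the apical lobe and from 26 to 58.4 with a median of 47.8 in the median lobe. It was lower in the apical lobe in 9 of 9 animals, with a fitted difference of -0.40 ± 0.092 (limma, adjusted p = 0.0334). SLC5A6 ranged from 93.5 to 187 with a median of 143 in the apical lobe and from 134 to 288 with a median of 175 in the median lobe, with a difference of -0.31 ± 0.075 (limma, adjusted p = 0.0366). The other 5 called genes, named after their values were seen, differed by -0.28 (SLC35C1), -0.26 (SLC35B1), -0.26 (SLC25A39), -0.22 (SLC39A7) and -0.21 (SLC1A3), with adjusted p from 0.0296 to 0.044 (limma). SLC1A3, a glutamate importer, was lower in 9 of 9 animals and the other 4 in 8 of 9.

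Of the 19 amino acid genes, 6 were lower and 0 higher in the apical lobe at an unadjusted p under 0.05, against 11.8% and 10.5% of all genes. Beside the 3 called, these were the neutral amino acid exchanger SLC1A4 at -0.26 ± 0.081, the glutamate importer SLC1A2 at -0.25 ± 0.080 and SLC3A2 at -0.19 ± 0.072. ASNS also fell in the apical against the median lobe, by 0.40 ± 0.077 (limma, adjusted p = 0.0208), the 1 gene of the 22 partners and regulators called there. In the other direction, the lysosomal carrier SLC46A3 was 0.26 ± 0.074 higher in the apical lobe (limma, adjusted p = 0.0691) and SLC2A3 0.30 ± 0.11 (limma, adjusted p = 0.168).

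The calls changed with the animals included. With 1 animal left out, SLC7A1 ranged from -0.39 to -0.31, SLC1A5 from -0.39 to -0.30, SLC5A1 from -0.44 to -0.33 and SLC5A6 from -0.36 to -0.26. All 9 genes remained called without low animal 31, 7 without medium animal 41, 6 without air animal 29, 4 without low animal 32, 3 without low animal 33 and 2 without air animal 28. None remained called without air animal 44, without medium animal 34, 39 or 42, without the apical array of animal 42, among the 8 animals with all 3 lobes or within the 3 air animals. All 9 differences stayed below 0 in every alternative that tested them. The share of all probe sets called in these alternatives is not given here. The counts thus cannot tell a loss of SLC calls from a loss of calls over the whole array. Smooth muscle markers, of which 4 of 5 were lower in the apical lobe at an unadjusted p under 0.05 and 0 called, summed to 5014 to 8513 over apical and 6574 to 8727 over median arrays, and alveolar type 2 markers, 1 of 4 called lower, to 4839 to 6562 and 5432 to 7527. B and plasma cell markers, 1 of 2 called higher, summed to 1491 to 1837 and 1428 to 1836. Striated muscle markers, 1 of 5 called lower but 3 of 5 above 0, summed to 82.7 to 123 and 79.8 to 144. Ciliated cell markers, 2 of 4 lower at an unadjusted p under 0.05, summed to 465 to 774 and 396 to 915. Their part in the lobe differences was not tested.

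**Figure D4:**
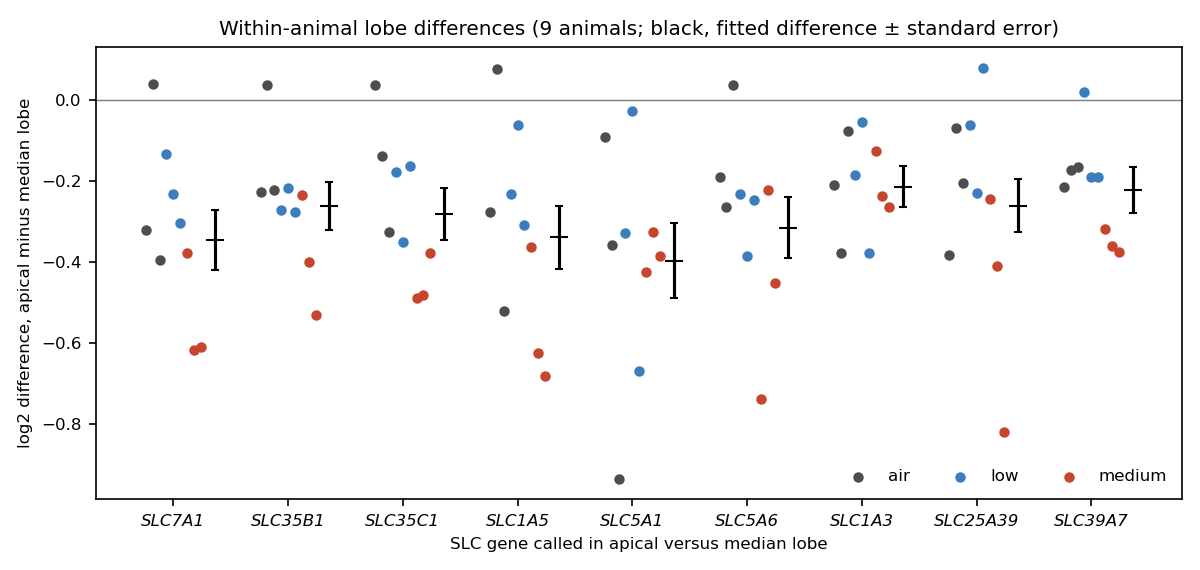
Within-animal log2 difference, apical minus median lobe, for the 9 SLC genes called in that comparison, 1 point per animal (9 animals, coloured by exposure), with the fitted difference ± SE in black. For SLC5A1 and SLC1A3 all 9 animals lie below 0, and for the other 7 genes 8 of 9 do.

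Against the caudal lobe, 0 SLC genes passed the adjusted threshold in either comparison (limma), and the fit without the animal block also called 0. For apical minus caudal, 0.167% of all probe sets and 0.237% of all genes were called. At an unadjusted p under 0.05 there were 20 SLC genes, 9 higher and 11 lower (16.7%), against 17% of all genes, 7.78% higher and 9.21% lower. SLC46A3 was 0.34 ± 0.077 higher in the apical lobe (limma, adjusted p = 0.0749), SLC1A5 -0.32, SLC5A1 -0.32 and SLC7A1 -0.26. The apical lobe is shared between this comparison and the one with the median lobe. For median minus caudal, 0% of probe sets were called. At an unadjusted p under 0.05 there were 22 SLC genes, 15 higher and 7 lower (18.3%), against 11.5% of all genes, 5.42% higher and 6.06% lower. The smallest p belonged to SLC25A14 at -0.21 ± 0.058 and SLC5A6 at 0.26 ± 0.075 (limma, adjusted p = 0.186 and 0.19).

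Whether the exposure differences depended on the lobe was tested with an exposure by lobe interaction. It called 0 of 120 SLC genes (limma, 0% of all probe sets; 0 also without the animal block), with 6 SLC genes at an unadjusted p under 0.05 (5%) against 6.24% of all genes. The smallest p values belonged to the hexose carrier SLC2A8 (0.00579) and SLC39A1 (0.00888), both with an adjusted p of 0.595. SLC46A2 had a p of 0.031 (adjusted 0.646). Its air arrays were 339.7, 279 and 332 in the apical, 314, 331 and 351 in the median and 301, 379 and 352 in the caudal lobe. Its medium arrays were 309, 295 and 288 in the apical, 239.7, 195, 169 and 125 in the median and 285, 146 and 132 in the caudal lobe. The medium arrays overlapped air in the apical lobe and lay below it in both others.

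Within single lobes, 0 SLC genes passed the adjusted threshold in any of the 9 exposure contrasts (limma). Without medium animal 34 there were 4 calls in medium against air in the median lobe (SLC1A5, SLC7A1, SLC39A14 and SLC46A2) where 1.66% of probe sets were called, 1 in the caudal lobe (SLC46A2) where 1.02% were, and 5 in medium against low in the median lobe where 5.46% were. With all animals in, in the median lobe, where 0.404% of all probe sets were called for medium minus air, 22 SLC genes (18.3%) had an unadjusted p under 0.05, against 21.7% of all genes. The counts were 11 (9.17%) in the apical lobe, with 0% of probe sets called and 5.87% of genes at the unadjusted level, and 16 (13.3%) in the caudal lobe, with 0.00417% called and 16.3% of genes. For low minus air they were 9, 11 and 5 SLC genes in the apical, median and caudal lobes, against 5.9%, 5.85% and 5.2% of all genes, with 0% of probe sets called. For medium minus low they were 14, 26 and 11, against 9.82%, 23.7% and 10.7% of all genes, with 0%, 0.0208% and 0% of probe sets called.

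SLC7A1 in the median lobe was 212, 176 and 182 in air and 269.5, 306, 369 and 383 after the medium dose, without overlap. The difference was 0.75 ± 0.14 (limma, adjusted p = 0.0524), beside 0.39 ± 0.15 in the apical and 0.57 ± 0.16 in the caudal lobe. SLC1A5 differed by 0.13, 0.46 and 0.50 in apical, median and caudal lobes, and SLC12A4 by 0.16, 0.54 and 0.51. SLC26A11 differed by -0.44, -0.66 and -0.58, and SLC39A1 by -0.51, -0.37 and -0.18. None of these differences between lobes passed the interaction test.

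**Figure D5:**
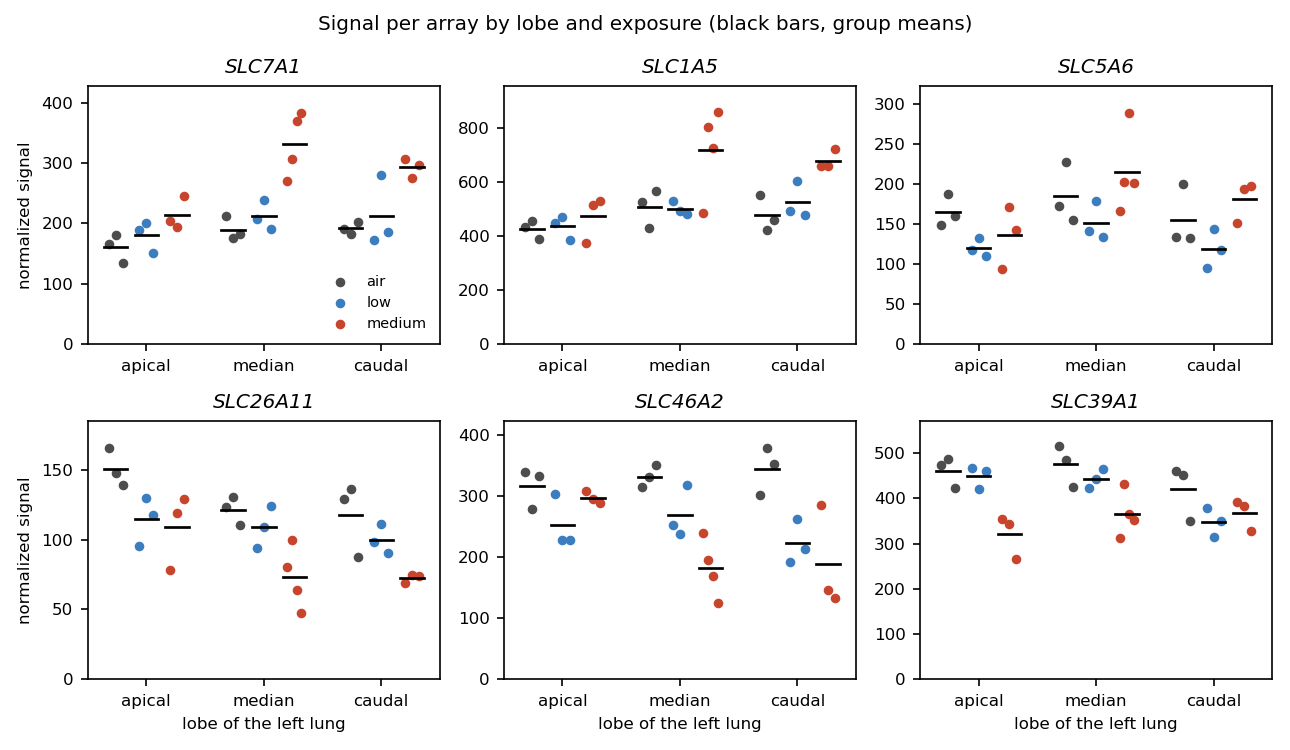
Normalized signal on each of the 28 arrays for 6 SLC genes, by lobe and exposure, with group means as black bars. SLC7A1 medium arrays lie above all air arrays of the same lobe in every lobe, and SLC46A2 medium arrays lie below air in the median and caudal lobes but not in the apical lobe.

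SLC genes varied between animals of one exposure by a median log2 SD of 0.16 over the 69 at or above the median probe set, against 0.14 over 5039 such genes. Among these 69 the largest spread was in SLC27A6, a fatty acid transport protein, at 0.66. Its signal was 39.97, 108 and 42.02 in the air animals, 105, 50.4 and 139 in the low-dose animals and 45.3, 38.2, 105 and 125 in the medium-dose animals, with high and low animals in every group and a difference of 0.23 ± 0.43 between medium and air. SLC2A4RG, a regulator of a glucose carrier gene and not a carrier, was next at 0.45.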

How the data were processed

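Whole-lung RNA of 10 female swine was read on 28 arrays, which limit the precision of every value. The authors deposited 1 signal intensity per probe set and array on a linear scale. Trimmed by 2% at either end, the mean of each array was 150, as after scaling by 1 factor. The summarization software was not given in the sources used here.

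Intensities of all 24123 probe sets were raised by an offset of 16, log2 transformed and quantile normalized, after which 124 control probe sets were dropped. The supplied annotation named 1 symbol for 10069 of the 23999 probe sets tested, several for 198, and did not list 13732. Of the 120 SLC genes, 118 matched a RefSeq gene ID. No sequences were used.

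Exposures were compared with limma 3.58.1 (R 4.3.3) on 1 coefficient per animal, adjusted for lobe. Lobes were compared with the animal as a block, since the sample titles tie the lobes to their animal (consensus correlation of lobes 0.33). Lobe by exposure effects were tested with a moderated F test. All p-values are two-sided and were adjusted over 23999 probe sets by the Benjamini-Hochberg method, and a gene was called at an adjusted p under 0.05. The p-values of the main exposure contrasts measure the spread between these animals, within 1 lobe for the single-lobe contrasts. Those of the lobe comparisons and of the interaction measure the spread of arrays within animals. The random-effect fit counts 28 arrays, although exposure was replicated over 10 animals. A signal per animal is its coefficient converted back from the log2 scale and without the offset. Figures were drawn with matplotlib 3.10.9 (Python 3.11.15).

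The fits were run on simulated data with planted changes. The planted exposure and lobe changes were larger than any SLC difference of the main fits, so the recovery of smaller differences was not tested. The alternatives were the deposited scaling, median-centred arrays, an offset of 1, brighter probe sets only, a trended and robust variance, an average over a gene's probe sets, a random animal effect, no block, an RNA index covariate, fewer animals or groups, each animal left out in turn and, chosen after seeing the data, the apical array of animal 42 left out.

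The SLC genes and gene lists were chosen with earlier results of these data known. Genes named were those called in exposure contrasts, the 6 smallest p in each exposure contrast, the 4 largest lobe calls each way, the 2 brightest of each of the 5 classes, and 21 listed genes, of which 12 were measured under a single symbol. Not measured that way were SLC7A5, SLC7A11, SLC38A2, SLC39A8, SLC30A1, SLC40A1, SLC12A2, SLC20A1 and SLC16A1. Genes outside this rule, such as SLC45A3, SLC30A3, SLC6A14, SLC8A1, SLC25A17, SLC27A6 and SLC46A3, were named after their values were seen.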

Additional observations from a re-analysis of the deposited data

Results flagged for a closer look

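In 41 genes the 4 medium-dose animals were searched for 1 animal far from the other 3, by Dixon's gap over range at the 95% level, which chance passes in about 1 of 20 groups. SLC26A11 was 105.1 in animal 39 against 74.71 to 77.7 in the others (gap over range 0.888). SLC44A4 was 79.39 in animal 39 against 108 to 114.8 in the others (0.833). Animal 39 had the highest RNA index and 2 arrays, and the part of either in these values was not tested.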

How the results depend on the processing

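Counts of called SLC genes in medium against air rose from 0 to 6 with a random animal effect and to 1 in a fit that included the RNA index, and ranged from 0 to 2 with 1 animal left out. In medium against low they were 6 and 0 to 3. The 9 calls of apical against median became 3 with an offset of 1, 0 with the 8 animals that had all 3 lobes, 0 with only the air animals, 0 without the apical array of medium animal 42 (chosen after seeing the data) and 0 to 10 with 1 animal left out. Without the animal as a replicate block that count was 0, and the block changed no other count of calls. Within the median lobe, medium against air had 2 calls among brighter probe sets and 1 with the trended and robust variance. It had 1 with the mean of all probe sets and 0 to 4 with 1 animal left out. With 1 animal left out, medium against low had 0 to 5 there, and caudal medium against air had 0 to 1. Shares of all probe sets called are given above for some of these settings only. A changed count is therefore not a result about SLC genes alone.

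The median over all SLC genes turned to 0.0021 (medium against low) and -0.0077 (median against caudal) with median-centred arrays and to 0.0038 (low against air) with the RNA index. It was -0.0105 (medium against air) among brighter probe sets, -0.0304 (apical against median) in the air animals, and -0.0491 to -0.0073 (medium against low) with 1 animal left out. In medium against air, the 8 complete animals turned SLC38A10 to -0.0122, SLC25A5 to 0.0488 and SLC31A1 to 0.1192, and the RNA index turned SLC31A1 to 0.0041. Without the apical array of animal 42, SLC2A3 turned to -0.0253 and SLC2A1 to -0.023. With 1 animal left out, differences crossed 0 for SLC2A3 (-0.0535 to 0.1699), SLC50A1 (-0.159 to 0.0129), SLC2A1 (-0.012 to 0.2203), SLC31A1 (-0.1445 to 0.0624) and SLC4A4 (-0.425 to 0.1672). The cause was not tested. Beside these reversals, single-gene results kept their direction and side of the threshold in 393 comparisons with other settings. They lost a call in 20 and gained one in 9, and with 1 animal left out the counts were 366, 24 and 4. Only 4 of the 40 results followed were calls in the main fit (SLC7A1, SLC1A5, SLC5A1 and SLC5A6, apical against median). Every lost call fell on these 4. Most results that kept their side were never called, so these totals do not measure how stable the calls were. Of the 9 lobe calls, SLC1A3 and SLC5A1 had a mean signal under that of the median probe set.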
